A study of Homo sapiens with 12 samples.

Results

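Polycomb repressive complex 2 (PRC2) and the DNA methylation machinery were examined through 10 listed genes in C4-2 cells depleted of choline kinase alpha (CHKA). The genes were EZH1, EZH2, EED and SUZ12, the core of PRC2, and DNMT1, DNMT3A, DNMT3B, UHRF1, HELLS and TET2, which write, maintain or remove DNA methylation. The rule names them by function and uses no measured value, although they were listed with earlier results of these data in view. Of the 10 genes, 9 had an identifier among the 54127 in the count files, and all 9 passed the expression filter. No identifier paired with UHRF1 matched, and UHRF1 is not analysed here.

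C4-2 is a castration-resistant human prostate cancer line derived from LNCaP. The cells were reverse transfected with 50 nM of an siRNA pool against CHKA (SiCHKA in the labels, siCHKA here; 6 samples) or of nontargeting siRNA (SiNTCONTROL, siNT here; 6 samples). Both groups were grown in RPMI with 10% FBS and both received Lipofectamine RNAiMAX. In a figure legend, the study describes the knockdown experiments as biological triplicates and, for another panel, as 6 biological replicates. It is therefore not known whether the 6 samples of a group are independent. The labels give neither the time after transfection nor which samples came from separate cultures, so p-values measure the spread between these samples. A pool of siRNAs is the limit of the model, since a change cannot be told apart from another action of the pool. RNA was sequenced from bulk cells, so fewer cells of a kind and less RNA per cell cannot be told apart.

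PRC2 places a repressive methyl mark on histone H3. EZH2 or its paralog EZH1 is the catalytic subunit, EED binds the mark and SUZ12 holds the complex together. EZH2 is known for high expression in dividing cells and in advanced prostate cancer, whereas EZH1 is the form typical of resting cells. DNA methylation at CpG sites is set up by the de novo enzymes DNMT3A and DNMT3B and copied at replication by DNMT1, which UHRF1 brings to newly made DNA. HELLS is a chromatin remodeller that opens nucleosomal DNA to these enzymes, and TET2 oxidises methylcytosine as the opening step of its removal.

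The knockdown held in all 6 siCHKA samples. CHKA, which phosphorylates choline in phosphatidylcholine synthesis, ranged from 1.91 to 4.67 CPM (median 2.31) after siCHKA and from 36.7 to 43.3 CPM (median 41.6) after siNT, where CPM are read counts scaled to library size after TMM normalization. Its log2 fold change was -3.88 (SE 0.14, edgeR's quasi-likelihood test, adjusted p = 5.89e-13). Reads on genes ranged from 10685184 to 24246055 per sample, at which 3 counts correspond to between 0.124 and 0.281 CPM. Among the prostate luminal markers, KLK3 was measured at 3252 ± 340 CPM (SD, n = 6) and FOLH1 at 604 ± 12.9 CPM (SD, n = 6) in the siNT samples. The basal markers KRT5 and TP63 had 1 and 3 reads in all 12 samples together, the stromal marker DES had 0 and the leukocyte marker PTPRC had 17. Summed over the whole list, the 11 luminal markers ran from 5510 to 7161 CPM after siCHKA and from 5944 to 7670 CPM after siNT. The 6 basal markers summed to between 16.8 and 20.9 CPM after siCHKA and to between 10.1 and 13.0 CPM after siNT, and the 9 stromal markers to between 38.4 and 48.1 CPM and between 24.8 and 29.7 CPM. Of these, ITGB4, KRT14, COL1A1 and ACTA2 were higher after siCHKA, by 0.59, 0.58, 0.82 and 0.89 on the log2 scale (adjusted p from 7.31e-07 to 0.00984, edgeR's quasi-likelihood test). The corresponding sums were 5.70 to 8.22 CPM and 4.61 to 7.26 CPM for leukocyte and endothelial markers, and 13.2 to 25.4 CPM and 6.71 to 13.0 CPM for neuroendocrine markers, whose defining gene CHGA had 10 reads in all while ENO2 and SYP were higher by 1.11 and 0.74 (adjusted p of 2.13e-05 and 0.00614). The part of these low signals in the results was not tested.

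The siCHKA samples were not alike. Replicates 1, 3 and 5 and replicates 2, 4 and 6 stood apart: the chi-square per degree of freedom was 12.5 to 24.9 for pairs across the sets, 4.05 to 9.50 within the former set and 2.39 to 4.09 within the latter. The siNT pairs ran from 2.51 to 30.9. For the 9 genes, the value in each set alone is therefore given where a set changed the call.

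The promoters of the 2 catalytic subunits of PRC2 and of the 2 DNA methylation genes that changed most are printed because these genes carry the main findings and their windows hold a sequence that E2F factors, regulators of replication genes, are known to bind. The sequences are RefSeq windows of the GRCh38.p14 assembly, from 250 bases before to 50 after a transcription start, read 5′ to 3′ on the gene's strand. Capitals mark any of the words TTTCCCGC, TTTCGCGC, TTTGCCGC and TTTGGCGC or their reverse complements, overlaps included.
EZH2 chr7:148884242-148884541 (minus strand): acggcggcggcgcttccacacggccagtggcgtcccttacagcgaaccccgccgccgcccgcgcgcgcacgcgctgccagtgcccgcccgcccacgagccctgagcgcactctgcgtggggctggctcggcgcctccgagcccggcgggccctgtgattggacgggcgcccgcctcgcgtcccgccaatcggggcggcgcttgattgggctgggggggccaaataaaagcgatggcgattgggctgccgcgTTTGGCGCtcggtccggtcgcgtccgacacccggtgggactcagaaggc
EZH1 chr17:42744991-42745290 (minus strand): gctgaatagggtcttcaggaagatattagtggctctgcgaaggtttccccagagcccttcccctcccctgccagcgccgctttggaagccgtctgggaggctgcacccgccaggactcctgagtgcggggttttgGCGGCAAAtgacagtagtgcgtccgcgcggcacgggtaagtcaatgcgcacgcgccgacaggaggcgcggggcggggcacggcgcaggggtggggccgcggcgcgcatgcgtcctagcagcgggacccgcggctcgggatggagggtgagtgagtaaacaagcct
DNMT1 chr19:10194904-10195203 (minus strand): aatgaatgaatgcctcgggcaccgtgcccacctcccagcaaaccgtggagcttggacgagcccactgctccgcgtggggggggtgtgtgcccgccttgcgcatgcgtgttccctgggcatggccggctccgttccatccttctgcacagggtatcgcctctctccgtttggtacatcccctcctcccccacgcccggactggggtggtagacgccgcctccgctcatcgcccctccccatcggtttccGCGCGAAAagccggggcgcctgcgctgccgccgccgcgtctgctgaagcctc
HELLS chr10:94545538-94545837 (plus strand): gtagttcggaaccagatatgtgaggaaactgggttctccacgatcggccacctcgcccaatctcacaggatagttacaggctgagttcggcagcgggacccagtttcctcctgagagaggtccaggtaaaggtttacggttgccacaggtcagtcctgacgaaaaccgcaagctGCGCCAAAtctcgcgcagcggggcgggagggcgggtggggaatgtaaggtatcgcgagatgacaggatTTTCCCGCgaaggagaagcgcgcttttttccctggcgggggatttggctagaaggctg

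All 10 genes had at least 1 RefSeq window, 19 windows in all. An E2F-type word was found in 3.31% of all 35116 windows and in 4.84% of the 15442 windows of tested genes. EZH2 held TTTGGCGC from base 2 after its upstream start and no word in its other window. In DNMT1 the word began 2 bases before the start. HELLS held a pair of words, at 76 and 8 bases before the start, and SUZ12 held TTTCCCGC at 189 bases before the start. Thus 4 of the 5 genes that were lower after siCHKA had a word (EZH2, SUZ12, DNMT1 and HELLS) and DNMT3B had none in its only window. That window, chr20:32779602-32779901, lies inside the gene, which is annotated from base 32762385, so the 5′ end of DNMT3B was not examined. The only windows of DNMT1, EED and HELLS also lie inside the annotated bounds of their genes. EZH1, which was higher, also had a word, 115 bases before its start. None of the 6 windows of DNMT3A, the window of EED or the 2 windows of TET2 had one. These matches are a description of letters and not of binding. CpG sites numbered 46 and 45 in the EZH2 windows, 40 in SUZ12, 30 in EZH1 and in DNMT1, 22 in HELLS, 16 in EED and 3 in the DNMT3B window, against a median of 25 over the windows of tested genes.

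Of the 9 genes measured, 5 were lower after siCHKA (EZH2, SUZ12, DNMT1, DNMT3B and HELLS), 2 were higher (EZH1 and DNMT3A), and EED and TET2 did not pass the test (edgeR's quasi-likelihood test, Benjamini-Hochberg adjusted over all genes, threshold 0.05). Among all 14501 genes tested, 30.1% were lower and 32.1% were higher, 62.2% in all, so that the 7 calls among the 9 genes are to be read against a background in which most genes changed. The CPM ranges of the groups did not overlap for 5 of the 9 genes, against 40.6% of all genes tested. The median log2 fold change of all genes was 0.035. Under upper-quartile scaling this median was 0.18, with 3052 genes lower and 6609 higher in place of 4371 and 4650, and 3 of the 9 genes were lower (EZH2, DNMT1 and HELLS) and 4 higher (EZH1, DNMT3A, EED and TET2).

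**Figure D1:**
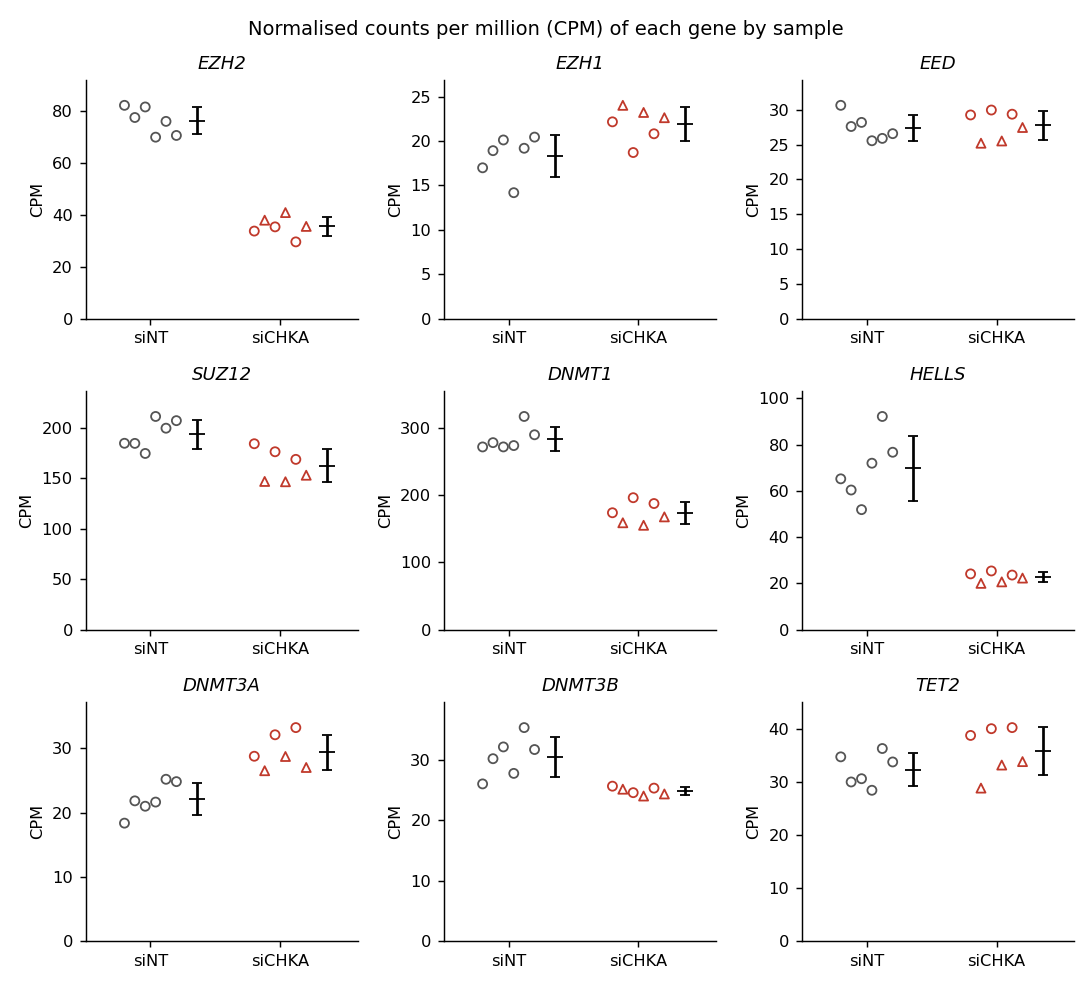
TMM-normalized read counts scaled to library size (CPM, y axis from 0) of the 9 genes in the 6 siNT samples (grey circles) and the 6 siCHKA samples (red; circles for replicates 1, 3 and 5, triangles for replicates 2, 4 and 6), with mean ± SD in black. The groups do not overlap for EZH2, DNMT1, HELLS, DNMT3A and DNMT3B, and overlap for EZH1, EED, SUZ12 and TET2.

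The catalytic subunits of PRC2 moved in opposite directions. EZH2 (ENSG00000106462; minus strand, chr7:148807257-148884321 in GRCh38) ranged from 29.6 to 40.9 CPM (median 35.5) after siCHKA and from 70.0 to 82.3 CPM (median 76.8) after siNT. The highest siCHKA sample lay well below the lowest siNT sample. EZH2 was at 46.6% of its siNT level (log2 fold change -1.10, SE 0.07, adjusted p = 4.47e-10, edgeR's quasi-likelihood test), with a 95% interval of the fold from 0.425 to 0.512. It ranked 544 from the lowest log2 fold change among the 14501 genes. EZH1 (ENSG00000108799; minus strand, chr17:42700275-42745049) ranged from 18.7 to 24.0 CPM (median 22.4) after siCHKA and from 14.2 to 20.4 CPM (median 19.1) after siNT. The groups overlapped for EZH1. Its log2 fold change was 0.26 (SE 0.09, adjusted p = 0.0147), a fold of 1.20 with a 95% interval from 1.07 to 1.35. With siCHKA replicates 1, 3 and 5 alone EZH1 did not pass the test (log2 fold change 0.17, adjusted p = 0.16).

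Within each sample, the ratio of EZH2 reads to EZH1 reads needs no scaling between libraries. The log2 ratio of counts, not corrected for transcript length, ran from 1.79 to 2.30 in the siNT samples and from 0.51 to 0.92 in the siCHKA samples. No siCHKA sample reached the lowest siNT sample. The means were 2.07 ± 0.19 (SD, n = 6) and 0.69 ± 0.15 (SD, n = 6), a difference of -1.37, so that the ratio fell to 0.386 of its siNT value (exact permutation test, two-sided, p = 0.00216, the smallest that 6 against 6 samples allow; the same after adjustment over the 2 ratios computed). The difference ran from -1.43 to -1.33 over the 15 alternatives, the siCHKA sets and each sample left out in turn among them.

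Of the other core subunits, SUZ12 passed the test and EED did not. SUZ12 (ENSG00000178691; plus strand, chr17:31937007-32001038) ranged from 147 to 184 CPM (median 161) after siCHKA and from 175 to 211 CPM (median 192) after siNT. The ranges met at the top of the siCHKA group, where replicates 1, 3 and 5 had 169 to 184 CPM and replicates 2, 4 and 6 had 147 to 153 CPM. The log2 fold change was -0.25 (SE 0.07, adjusted p = 0.00388, edgeR's quasi-likelihood test), and SUZ12 did not pass the test with replicates 1, 3 and 5 alone (-0.13, adjusted p = 0.11) or under upper-quartile scaling (-0.11, adjusted p = 0.142). EED (ENSG00000074266; plus strand, chr11:86201212-86278813) ranged from 25.2 to 30.0 CPM (median 28.4) after siCHKA and from 25.6 to 30.6 CPM (median 27.1) after siNT. These ranges nearly coincided. The fold of EED was 1.01 with a 95% interval from 0.930 to 1.10 (adjusted p = 0.801), so that a change the size of that of EZH2 lies outside the interval, although under upper-quartile scaling EED passed the test (log2 fold change 0.16, adjusted p = 0.0287).

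**Figure D2:**
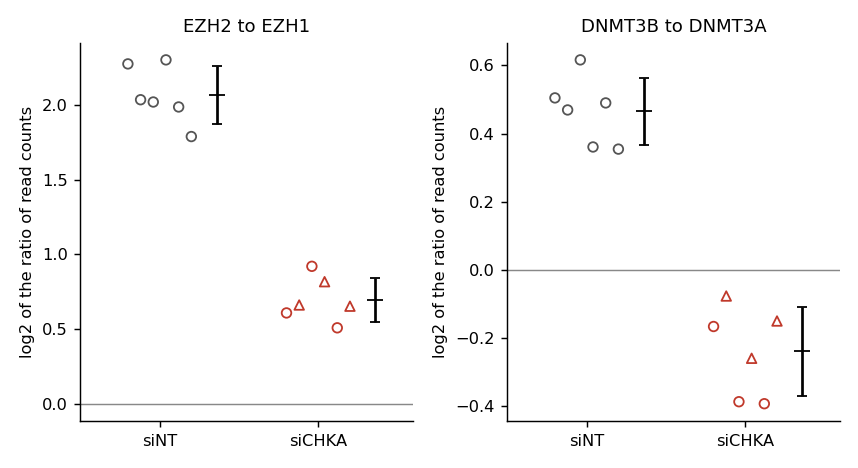
Log2 ratio of read counts of EZH2 to EZH1 (left) and of DNMT3B to DNMT3A (right) in each siNT (grey circles) and siCHKA sample (red; circles for replicates 1, 3 and 5, triangles for 2, 4 and 6), with mean ± SD in black and a line at a ratio of 1. The groups do not overlap in either panel. The DNMT3B to DNMT3A ratio of reads lies above the line in every siNT sample and below it in every siCHKA sample. Reads are not corrected for transcript length, and per kilobase of canonical transcript DNMT3B exceeded DNMT3A in both groups.

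Among the DNA methylation genes, the maintenance methyltransferase and the remodeller were lower. DNMT1 (ENSG00000130816; minus strand, chr19:10133342-10231286) ranged from 155 to 196 CPM (median 171) after siCHKA and from 272 to 317 CPM (median 276) after siNT. The groups were well separated. DNMT1 stood at 61.1% of its siNT level (log2 fold change -0.71, SE 0.06, adjusted p = 4.10e-08, edgeR's quasi-likelihood test; 95% interval of the fold from 0.560 to 0.666). HELLS (ENSG00000119969; plus strand, chr10:94545329-94613905) ranged from 20.1 to 25.4 CPM (median 23.0) after siCHKA and from 51.9 to 92.2 CPM (median 68.6) after siNT. Relative to its mean it varied more among the siNT samples than any other of the 9 genes, yet its lowest siNT sample was above every siCHKA sample. The log2 fold change of HELLS was -1.62 (SE 0.11, adjusted p = 1.72e-09), a fall to 32.6% of the siNT level and the largest among the 9 genes, at rank 141 from the lowest of the 14501 genes.

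The de novo methyltransferases, like the catalytic subunits of PRC2, moved in opposite directions. DNMT3A (ENSG00000119772; minus strand, chr2:25227855-25342590) ranged from 26.5 to 33.2 CPM (median 28.8) after siCHKA and from 18.4 to 25.2 CPM (median 21.7) after siNT. Every siCHKA sample was above every siNT sample. Its log2 fold change was 0.41 (SE 0.08, adjusted p = 0.000288, edgeR's quasi-likelihood test), a fold of 1.33 with a 95% interval from 1.19 to 1.48. DNMT3B (ENSG00000088305; plus strand, chr20:32762385-32809359) ranged from 24.0 to 25.7 CPM (median 24.9) after siCHKA and from 26.0 to 35.4 CPM (median 31.0) after siNT. The groups did not overlap, though the lowest siNT sample was close to the highest siCHKA sample. DNMT3B had a log2 fold change of -0.30 (SE 0.07, adjusted p = 0.000908), which was just short of the threshold under upper-quartile scaling (-0.15, adjusted p = 0.0503). The log2 ratio of DNMT3B to DNMT3A reads, not corrected for transcript length, was 0.47 ± 0.10 (SD, n = 6) in the siNT samples. In the siCHKA samples this log2 ratio was -0.24 ± 0.13 (SD, n = 6). It ran from 0.35 to 0.62 after siNT and from -0.39 to -0.08 after siCHKA. The ratio fell to 0.614 of its siNT value (difference -0.70, exact permutation test, two-sided, p = 0.00216), and the difference ran from -0.78 to -0.63 over the 15 alternatives.

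TET2, the eraser, did not pass the test. TET2 (ENSG00000168769; plus strand, chr4:105145875-105279816) ranged from 28.8 to 40.3 CPM (median 36.3) after siCHKA and from 28.4 to 36.3 CPM (median 32.2) after siNT. Replicates 1, 3 and 5 had 38.8 to 40.3 CPM, above every siNT sample, and replicates 2, 4 and 6 had 28.8 to 33.8 CPM, within the siNT range. The log2 fold change was 0.15 (SE 0.09, adjusted p = 0.142, edgeR's quasi-likelihood test) with all samples. It was 0.30 (adjusted p = 0.00241) with replicates 1, 3 and 5 and -0.02 (adjusted p = 0.854) with replicates 2, 4 and 6. TET2 also passed the test without siCHKA replicate 2 (0.21, adjusted p = 0.0265) and under upper-quartile scaling (0.29, adjusted p = 0.00514).

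**Figure D3:**
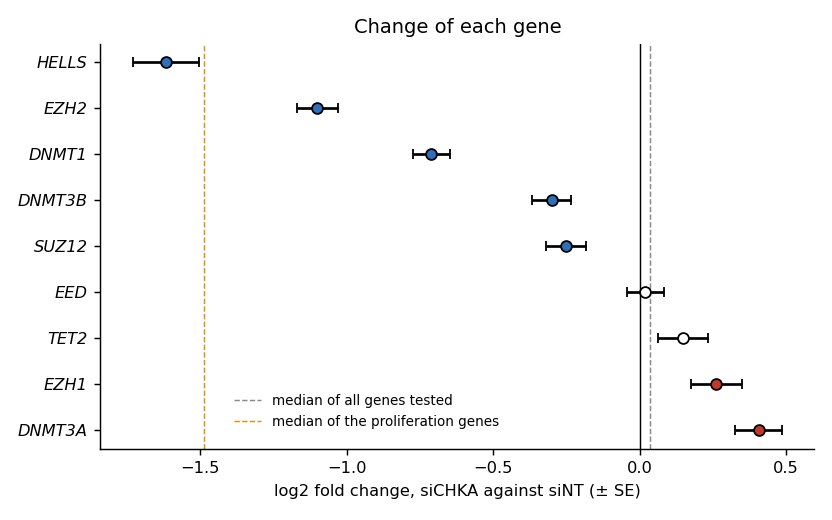
Log2 fold change of each gene after siCHKA against siNT (x axis, ± SE); blue points were lower, red points higher and white points not past the threshold. HELLS, at -1.62, lies near the median of 30 proliferation genes (orange line, -1.49), and the other genes lie between that line and 0.41.

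For 8 of the 9 genes, all but DNMT3B, the CPM ranges of siCHKA replicates 1, 3 and 5 and of replicates 2, 4 and 6 did not overlap, as was so for 47.5% of all genes tested. EED, SUZ12, DNMT1, DNMT3A, HELLS and TET2 were higher in the former set and EZH1 and EZH2 in the latter. EZH2 had 29.6 to 35.4 CPM in replicates 1, 3 and 5 and 35.6 to 40.9 CPM in replicates 2, 4 and 6. DNMT1 had 174 to 196 CPM and 155 to 168 CPM, and HELLS 23.6 to 25.4 CPM and 20.1 to 22.3 CPM. For EZH2, DNMT1, DNMT3A and HELLS the gap between the sets was smaller than that between the groups, and these 4 genes passed the test in the same direction with either set alone. CHKA itself had 1.91 to 2.34 CPM in replicates 1, 3 and 5 and 2.27 to 4.67 CPM in replicates 2, 4 and 6.

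Levels can be compared between genes only per length. In the siNT samples, per kilobase of the canonical transcript, DNMT1 stood highest at 53.8 ± 3.35 CPM per kb (SD, n = 6), followed by SUZ12 at 43.1 ± 3.23, EZH2 at 28.8 ± 1.98, HELLS at 22.3 ± 4.48, EED at 13.1 ± 0.897, DNMT3B at 7.05 ± 0.768, EZH1 at 3.95 ± 0.508, TET2 at 3.37 ± 0.321 and DNMT3A at 2.35 ± 0.271. The ranges of EZH2 and HELLS overlapped, as did those of EZH1 and TET2. Overlap of ranges ignores that both genes were measured in the same samples, so it does not show that such neighbours were level. After siCHKA, SUZ12 at 36.2 ± 3.57 CPM per kb overlapped DNMT1 at 32.9 ± 3.05, and EZH2 at 13.4 ± 1.44 overlapped EED at 13.3 ± 0.990. HELLS stood at 7.26 ± 0.662 CPM per kb, DNMT3B at 5.73 ± 0.145, EZH1 at 4.73 ± 0.412, TET2 at 3.74 ± 0.480 and DNMT3A at 3.12 ± 0.288, with overlap between EZH1 and TET2 and between TET2 and DNMT3A. On this scale EZH2 exceeded EZH1 in both groups, and DNMT3B exceeded DNMT3A in both. The order depends on the length used: per kilobase of all annotated exons SUZ12 came before DNMT1, and DNMT3B before EED, in the siNT samples, and EZH2 and EZH1 were nearly level after siCHKA, at 3.30 and 3.14 CPM per kb.

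**Figure D4:**
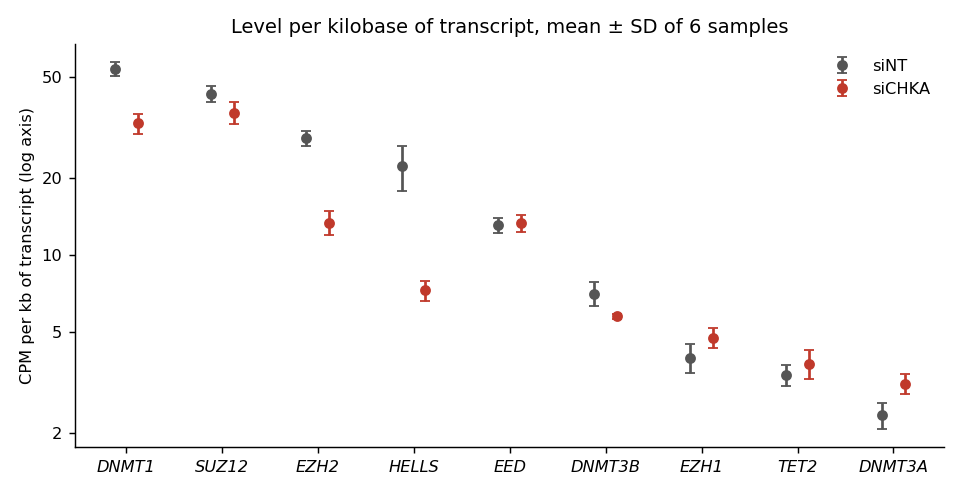
CPM per kilobase of canonical transcript (log axis) of the 9 genes in siNT (grey) and siCHKA samples (red), mean ± SD of 6 samples. EZH2 drops from 28.8 to 13.4 CPM per kb, beside EED at 13.3, and HELLS from 22.3 to 7.26. Per kilobase of all annotated exons, EZH2 was at 3.30 and EED at 3.97 CPM per kb after siCHKA.

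EZH2, DNMT1 and HELLS are known to be expressed with replication, and their change was set beside that of 30 replication and proliferation genes, none of which is among the 9. All 30 were lower after siCHKA, against 30.1% of all genes tested, with a median log2 fold change of -1.49. Among them were RRM2 (-2.62), which makes deoxynucleotides, CDC6 (-1.88), which licenses origins, and TYMS (-1.63), which makes thymidylate. The per-sample median of the 30 genes ran from 5.96 to 6.03 on the log2 CPM scale after siCHKA and from 7.37 to 7.55 after siNT. Taken as the log2 difference to that median in the same sample, HELLS was at -1.49 ± 0.15 (SD, n = 6) after siCHKA and -1.37 ± 0.31 (SD, n = 6) after siNT, and these groups overlapped. EZH2 was at -0.85 ± 0.13 and -1.22 ± 0.08, without overlap, so that EZH2 fell less than the median of the proliferation genes, by 0.37 on the log2 scale. DNMT1 fell less by 0.77. The part of reduced proliferation in the falls of these genes was not tested.

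Most factors that regulate such genes were lower as well. Of 17 tested genes of the E2F and RB family, 15 (88.2%) were lower and 1 (5.88%) higher, against 30.1% and 32.1% of all genes. The median log2 fold change of this family was -0.96. E2F2 had a log2 fold change of -1.83, the repressor E2F7 of -1.69 and LIN9, of the DREAM and MuvB complexes, of -1.36, while TFDP2, a partner of E2F proteins, rose by 0.27 (adjusted p from 2.33e-12 to 0.000232 over these 4 genes, edgeR's quasi-likelihood test).

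Around the core of PRC2, 9 accessory subunits were tested, of which 4 (44.4%) were lower and 2 (22.2%) higher, against 30.1% and 32.1% of all genes, with a median log2 fold change of 0.02. Under upper-quartile scaling 4 were lower and 5 higher. PHF19, which brings PRC2 to chromatin, fell from 15.1 ± 1.53 to 7.80 ± 0.248 CPM (SD, n = 6 each; log2 fold change -0.95). The histone-binding subunits RBBP4 and RBBP7, which also serve other chromatin complexes, had log2 fold changes of -0.37 and -0.41. JARID2, which helps target the complex, rose by 0.41, and LCOR, whose locus encodes a PRC2-associated protein besides a nuclear receptor corepressor, rose by 0.98 (adjusted p from 1.07e-08 to 4.04e-05 over these 5 genes).

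PRC1 is the complex that binds the PRC2 mark and ubiquitinates histone H2A. Of its 27 tested subunits 13 (48.1%) were lower and 8 (29.6%) higher, against 30.1% and 32.1% of all genes, with a median log2 fold change of -0.17. SCML1, SCML2 and CBX6 had log2 fold changes of -1.70, -1.10 and -0.81, while PCGF3, CBX8 and BMI1 rose by 0.72, 0.36 and 0.29. SCML2 was even among replicates, at 37.8 ± 0.619 CPM after siCHKA and 81.1 ± 3.09 CPM after siNT (SD, n = 6 each; adjusted p = 9.89e-13, edgeR's quasi-likelihood test). Of 14 tested factors that oppose Polycomb, 5 (35.7%) were lower and 3 (21.4%) higher, against 30.1% and 32.1% of all genes, with a median of -0.15. The methyltransferase NSD2 had a log2 fold change of -0.94, the chromatin remodelling subunit ARID1A of -0.71 and the deubiquitinase cofactor ASXL1 of -0.58. The demethylases that remove the PRC2 mark, KDM6B and KDM6A, rose by 0.53 and 0.38, and SMARCB1 by 0.17. With siCHKA replicates 1, 3 and 5 alone the counts of this list were 4 lower and 5 higher, as under upper-quartile scaling, and with replicates 2, 4 and 6 they were 8 and 3.

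In the wider DNA methylation list, without the 9 genes, 18 genes were tested, of which 8 (44.4%) were lower and 2 (11.1%) higher, against 30.1% and 32.1% of all genes, with a median log2 fold change of -0.24. With siCHKA replicates 1, 3 and 5 alone 11 were lower and 4 higher, and under upper-quartile scaling 7 and 4. The HELLS partner CDCA7 and its relative CDCA7L had log2 fold changes of -1.03 and -1.49. LIG1, the replicative ligase whose methylated form is bound by UHRF1, had a log2 fold change of -1.02. TET3, a further eraser, rose by 0.41 and the demethylation-linked GADD45A by 0.28 (adjusted p of 0.00824 and 0.00213, edgeR's quasi-likelihood test). Of 10 methyl-CpG readers, 3 were lower and 2 higher, with a median of -0.0039, where 62.2% of all genes were called. The counts turned to 1 lower and 4 higher under upper-quartile scaling and to 2 and 4 with siCHKA replicates 1, 3 and 5 alone. ZBTB38 had a log2 fold change of -1.19, MBD3 of -0.18 and ZBTB4 of -0.17, while MBD5 rose by 0.78 and ZBTB33 by 0.21.

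Both enzyme classes use S-adenosylmethionine (SAM), and 19 genes of its supply were tested. Of these, 10 (52.6%) were lower and 3 (15.8%) higher, against 30.1% and 32.1% of all genes, with a median log2 fold change of -0.26. MTHFD1 and SHMT2, of the folate cycle, had log2 fold changes of -0.63 and -0.53, and ADK, which clears adenosine formed from used SAM, of -0.53. MAT1A, a SAM synthetase, rose by 1.01 from the low level of 1.94 ± 0.407 CPM (SD, n = 6). AHCYL2 rose by 0.27. Under upper-quartile scaling the counts of the SAM list were 6 lower and 5 higher.

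Genes linked to other repressive histone marks, on lysines H3K9 and H4K20, numbered 17 tested genes, with readers and cofactors besides enzymes. Of these, 8 (47.1%) were lower and 2 (11.8%) higher, against 30.1% and 32.1% of all genes, with a median of -0.12. SUV39H1 had a log2 fold change of -2.73, the H4K20 methyltransferase KMT5A of -0.99 and the heterochromatin protein gene CBX1 of -0.94. KMT5B rose by 0.39 and SETDB1 by 0.14. Under upper-quartile scaling 8 were lower and 6 higher.

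**Figure D5:**
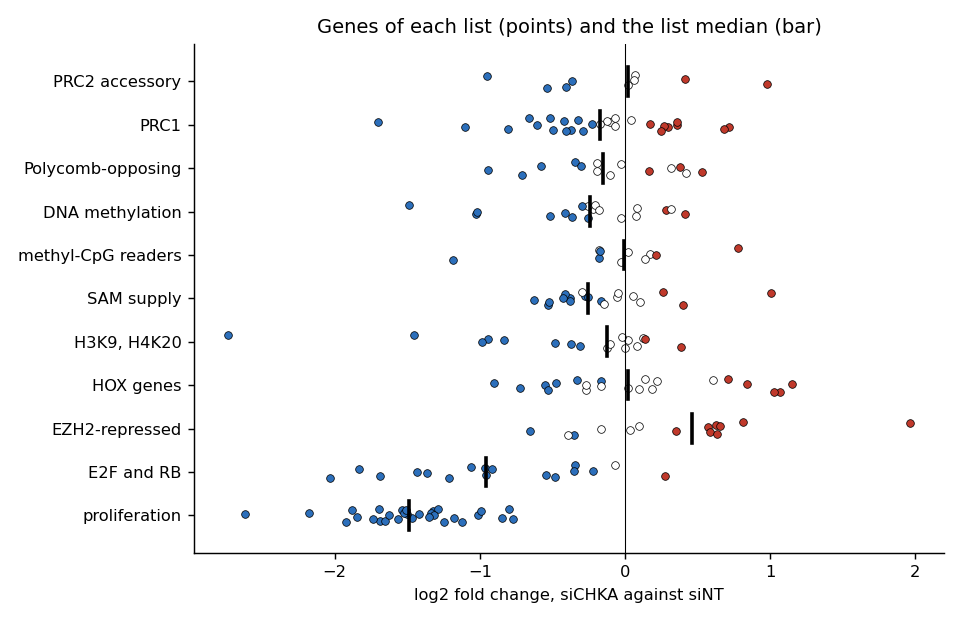
Log2 fold change after siCHKA against siNT (x axis) of each tested gene of 11 lists; blue points were lower, red points higher, white points not past the threshold, and black bars are list medians. All 30 proliferation genes lie below 0 (median -1.49), the EZH2-repressed list has a median of 0.46, and the lists of the 2 Polycomb complexes and of DNA methylation spread to both sides.

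Genes known as targets were looked at next. Of 24 genes known as repressed by EZH2 in cancer cells, 14 could be tested, of which 8 (57.1%) were higher and 2 (14.3%) lower, against 32.1% and 30.1% of all genes, with a median log2 fold change of 0.46 against 0.035 over all genes. CDKN2B and CDKN1A, which encode inhibitors of cyclin-dependent kinases, rose by 1.97 and 0.81, and TIMP2, an inhibitor of matrix metalloproteases, by 0.65. CDKN2B stood at 1.97 ± 0.660 CPM after siCHKA and 0.528 ± 0.270 CPM after siNT (SD, n = 6 each; adjusted p = 1.97e-05, edgeR's quasi-likelihood test). WNT5A, a secreted signalling protein of the same list, had a log2 fold change of -0.66. CDKN1A and CDKN2B are known to be induced by several signals, and the part of PRC2 in these rises was not tested. With siCHKA replicates 2, 4 and 6 alone, 5 genes of the list were higher and 2 lower, with a median of 0.27.

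Of 21 tested HOX genes, classical Polycomb targets, 7 (33.3%) were lower and 5 (23.8%) higher, with a median log2 fold change of 0.02, against 30.1% lower and 32.1% higher among all genes. Under upper-quartile scaling 4 were lower and 7 higher. HOXA10, HOXA11 and HOXC9 had log2 fold changes of -0.47, -0.72 and -0.53. HOXB9, HOXC4 and HOXC13 rose by 1.03, 0.84 and 0.71. A further 17 HOX genes did not pass the expression filter, of which 6 had no read in any sample.

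Of 20 genes known for promoter DNA methylation in prostate cancer, 15 did not pass the expression filter, and 9 of them had fewer than 3 counts in every sample. GSTP1, the best known of them, had 2 reads in all 12 samples together and at most 1 in a sample, under the 3 counts taken as the limit of detection. No change of these 9 genes was detectable at this depth. Of the 5 tested, 3 (60%) were lower and 1 (20%) was higher, against 30.1% and 32.1% of all genes, and APC did not pass the test. The counts were 1 lower and 2 higher under upper-quartile scaling and 2 and 2 with siCHKA replicates 1, 3 and 5 alone. SFRP1 had a log2 fold change of -1.41, RASSF1 of -0.32 and RARB of -0.29, and MGMT rose by 0.38.

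Germline and cancer-testis genes, many of which are held silent by promoter methylation in somatic cells, gave 15 tested genes, with 3 lower, 5 higher and a median log2 fold change of 0.06, against 30.1% and 32.1% of all genes. With siCHKA replicates 2, 4 and 6 alone 4 were lower and 3 higher. BRDT, TDRD1 and PAGE1 had log2 fold changes of -2.35, -0.95 and -0.25. Levels were low for BRDT, at 0.348 ± 0.129 CPM after siCHKA and 1.80 ± 0.606 CPM after siNT (SD, n = 6 each). They were also low for TDRD1, at 0.636 ± 0.265 and 1.23 ± 0.195 CPM (SD, n = 6 each). MAGED1, MAGEA12 and TDRKH, already expressed in the siNT samples at 224 ± 7.95, 91.1 ± 7.53 and 44.7 ± 2.38 CPM (SD, n = 6), rose by 0.43, 0.41 and 0.31. The other 25 listed genes did not pass the filter, and 7 of these had no read in any sample. Members of the MAGE family have near-identical copies, so their counts are less certain.

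Words of 7 bases in 3′ UTRs were also counted, because GCCAGAT and TGCCCTT had earlier been seen to go with falls in these samples. Of the tested genes with an examined 3′ UTR, 23.6% held either word. The words were chosen on these samples, so that their presence or absence is a description only. The 3′ UTRs of the canonical transcripts of EZH2 (263 bases), SUZ12 (2035 bases), DNMT1 (321 bases), DNMT3B (1453 bases) and HELLS (477 bases), the 5 genes that were lower, held neither word. EZH1, which was higher, held 1 copy of GCCAGAT, and TET2 held 1 copy of TGCCCTT. EED and DNMT3A held neither.

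The read counts behind these values ran from 199, for EZH1 in a siNT sample, to 6498, for DNMT1. Between 26.1% and 30.6% of the alignments reported per sample were on reads placed at more than 1 locus and were not counted, which concerns genes with copies such as the pseudogenes SUZ12P1, EZH2P1, EEDP1 and DNMT3AP1. DNMT1 overlaps S1PR2 on the same strand and TET2 overlaps TET2-AS1 on the opposite strand. The counting is not stated to use strand, so reads of TET2 and TET2-AS1 cannot be told apart. TET2-AS1 has an identifier of its own in the files.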

How the data were processed

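RNA-seq libraries (TruSeq) of 6 siCHKA and 6 siNT samples were analysed. Per the study's methods and processing notes, the reads were single-end with 40 bases, TopHat2 2.0.4 placed them on GRCh37 and HTSeq 0.5.3p9 counted them per Ensembl gene. The authors deposited raw read counts, in 4 files per sample. The labels describe the RNA as from flow-sorted cells, whereas the study's methods name no sort.

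The 4 files were summed. Rows for reads on no gene (3.95% to 5.97%), ambiguous reads (2.82% to 2.93%) and reads placed more than once were left out. Identifiers were named through GENCODE 44 (82.8% matched); coordinates are its GRCh38 coordinates, since the count files hold none. The test was edgeR's quasi-likelihood test (edgeR 4.0.16, R 4.3.3; TMM scaling after filterByExpr, no covariates, Benjamini-Hochberg adjusted p under 0.05). The SE of a log2 fold change was its size over the root of F, with normal 95% intervals, and a prior count of 2 was added for log2 CPM. Ratios were compared by exact permutation over all 924 regroupings. The fit was tested on simulated counts. Alternatives were RLE and upper-quartile scaling, DESeq2 1.42.0, no filter, a minimum of 10 counts per sample, a replicate block, either siCHKA set alone and each sample left out. Depth limits apply to counting error only.

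The 10 genes, the gene lists and the choice of tests were made with earlier results of these data known. Genes of a list were named by the smallest p, at most 3 lower and 3 higher among those past the threshold; KRT5, TP63, DES, PTPRC, CHGA, KLK3, GSTP1 and APC were named besides as defining markers or after their values were seen. Some genes that this rule names are not reported here.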

Additional observations from a re-analysis of the deposited data

How the results depend on the processing

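EZH2, DNMT1, DNMT3A, HELLS and CHKA kept their direction and an adjusted p below 0.05 in edgeR or DESeq2 under all 20 alternatives, and both read ratios under all 15 run for them. The numbers of all genes called ran from 3052 to 4686 lower and from 4282 to 6609 higher. Under upper-quartile scaling 3 of the 9 genes were lower and 4 higher, and this scaling raised the median log2 fold change of all genes from 0.035 to 0.18. EZH1 was lost with siCHKA replicates 1, 3 and 5 (0.17), SUZ12 with that set (-0.13) and under upper-quartile scaling (-0.11), and DNMT3B under that scaling (-0.15). EED passed the test under upper-quartile scaling (0.16), was at 0.11 with siCHKA replicates 1, 3 and 5 without passing it, turned negative under DESeq2 (-0.0012), without a filter (-0.0095) and with siCHKA replicates 2, 4 and 6 (-0.077), and its log2 fold change ran from -0.0104 to 0.0489 with 1 sample left out. TET2 turned negative with siCHKA replicates 2, 4 and 6 (-0.019) and passed the test with replicates 1, 3 and 5 (0.30), without siCHKA replicate 2 (0.21) and under upper-quartile scaling (0.29). The cause of these changes was not tested. Same-numbered samples did not deviate together (correlation per pair from -0.40 to 0.32, and 1 of 12 samples correlated best with its own number), so the numbers were not taken to pair the samples; with the replicate block 5 of the 9 genes were lower and 2 higher, 4273 of all genes were lower and 4494 higher, and EZH2 had a log2 fold change of -1.10. An outlying value was searched for in 24 groups of 6 samples and none was met (0 of 24), where chance gives about 1.2. At 10685184 reads, the smallest library, genes under 0.281 CPM could not be told from absent.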
